A study of Rattus norvegicus with 18 samples.

Results

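AP-1 is a family of dimeric transcription factors built from Fos and Jun proteins. The array carried 13 probe sets whose single gene symbol in the platform annotation was Fos, Fosl1, Fosl2, Jun, Junb or Jund, out of 8799 probe sets in all, and they covered 6 of the 7 genes sought. Fosb was not represented by such a probe set and was not analysed here. The 13 comprised 3 probe sets for Fos, 1 for Fosl1, 2 for Fosl2, 4 for Jun, 2 for Junb and 1 for Jund. They were taken by gene symbol, and no level or time course entered that rule, although the gene family was picked with earlier results of these data known. The tissue was that of the rat suprachiasmatic nucleus (SCN), the hypothalamic pacemaker of daily rhythms.

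All samples came from adult male Long-Evans rats without any genetic change. The animals had been kept in alternating light and dark, were placed in constant darkness at the usual lights-off, and were killed under isoflurane anaesthesia at 0, 6, 12, 18, 24, 30, 36 or 42 h after the next projected lights-on. That moment is circadian time (CT) 0, so each of CT 0, 6, 12 and 18 was sampled on 2 days. RNA of the 5 rats of a time point was combined, which leaves 1 pool per time point and no measure of the spread between animals. Affymetrix rat GeneChips were used, 8 in a technical repeat and 10 in a first run, which had duplicate arrays (a, b) for 24 h and 36 h. Arrays a and b were taken to read the same pool.

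Proteins of the Fos group pair with proteins of the Jun group through a leucine zipper, and the dimer binds a short DNA element in the control regions of many genes. Jun proteins can also pair with one another, whereas Fos proteins need a partner. Fos and Junb belong to the immediate early genes, whose transcripts appear within minutes of neuronal stimulation and decay quickly. In the SCN, light given during the night is the best known inducer of Fos, and constant darkness takes that stimulus away.

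Most AP-1 probe sets were dim, including 2 of the 3 for Fos and 2 of the 4 for Jun. Values are the authors' deposited intensities, and a level is the geometric mean of the 8 pools. A probe set was tested when its level exceeded the median of all probe sets without controls (an intensity of 121). This held for 3 of the 13, namely Fos X06769cds_g_at, Jun rc_AA945867_at and Jun rc_AI175959_at. The filter used the mean of all pools and so did not depend on time. Because tissue was pooled, fewer cells of a type and less RNA per cell cannot be told apart in any value below. Different probe sets bind with different strength, so a level is not an amount that can be compared between genes.

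Of the Fos group, Fos itself gave 423 on X06769cds_g_at, with an SD of 0.22 on the log2 scale (n = 8 pools). Single arrays lay between 314 and 590, with a median of 415, and all 18 exceeded the median of their own array. The platform annotation pairs X03347cds_g_at with another accession than the one in its name, and it was kept as Fos by its symbol. The other Fos probe sets were at 104 (X03347cds_g_at, single arrays 57.5 to 162) and 40.8 (X06769cds_at, single arrays up to 133). Fos was thus read by 1 probe set above the filter and 2 below it. Fosl1, which encodes Fra-1, was at 17.9, and its 18 arrays lay between 9.60 and 28.0 apart from 1 at 79.8. Fosl2, which encodes Fra-2, was at 70.6 (U18982_s_at) and 67.4 (rc_AI230842_at).

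Of the Jun group, Jun gave 280 on rc_AA945867_at (SD 0.22 on the log2 scale) and 332 on rc_AI175959_at (SD 0.36, n = 8 pools each). Every array exceeded its own median with both. The remaining Jun probe sets were at 54.6 (rc_AA944014_at) and 23.7 (X17163cds_s_at). Junb, a Jun protein that often restrains Jun, was at 71.8 (X54686cds_at) and 33.9 (rc_AA891041_at). Jund, which is expressed constitutively in many tissues, was at 20.4, and 4 of its 18 arrays were at or below the floor of 12.1 set before taking logarithms. Fosl1 had 2 such arrays and Jun X17163cds_s_at 1.

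The dim levels can be set beside 19 control probe sets for bacterial and yeast transcripts, which gave levels of 3.98 to 44.8 over the 18 arrays (median 15.5) and single values up to 165. Of the 13 AP-1 probe sets, 5 lay within that range of levels, namely those of Fosl1 and Jund and 1 each of Fos, Jun and Junb. The other 8 lay above it. For Jund and Fosl1 no signal beyond that of the control probe sets was detectable on average.

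**Figure D1:**
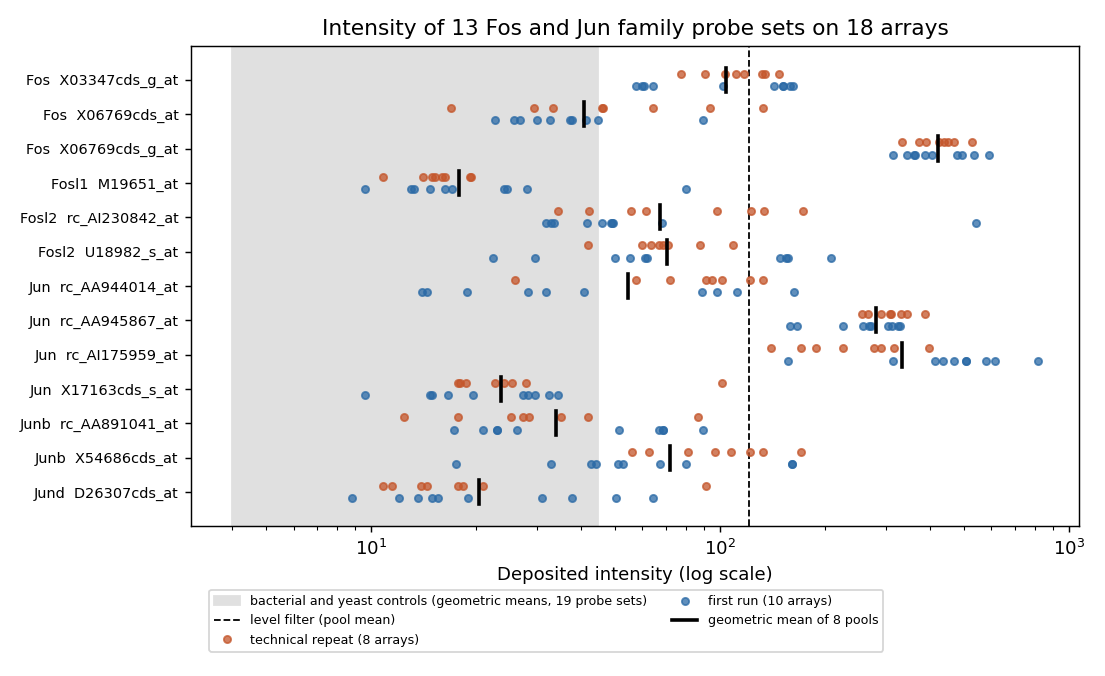
Deposited intensity (log axis) of the 13 AP-1 probe sets, 1 point per array, with the technical repeat above the first run in each row and the geometric mean of the 8 pools as a black bar. Fos X06769cds_g_at (423), Jun rc_AI175959_at (332) and Jun rc_AA945867_at (280) lie right of the level filter (121, dashed), and 5 means fall in the grey range of control levels (3.98 to 44.8).

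Over the 8 time points Fos X06769cds_g_at stayed within a narrow range. Its pools at 0, 6, 12, 18, 24, 30, 36 and 42 h measured 347, 472, 451, 509, 406, 397, 491 and 342. The highest pool (18 h) was 1.49 times the lowest (42 h), and these 2 pools, the extremes of the series, share CT 18. A 24-h cosine fitted to the pools had an amplitude (fitted mean to fitted peak) of 0.17 ± 0.11 on the log2 scale (SE, n = 8), and it peaked at CT 11.4 (fitted peak over trough, 1.26). The rhythm did not pass the test (limma's moderated F test, adjusted p = 0.825; exact permutation test, p = 0.390). The order of circadian times was CT 12 (471), CT 6 (433), CT 18 (417) and CT 0 (375), and no difference among them passed (adjusted p = 0.848).

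Jun rc_AA945867_at was low at 6 h and high at 42 h. Its pools measured 261, 210, 329, 281, 277, 264, 293 and 343 from 0 to 42 h, a 1.64-fold range. The fitted amplitude was 0.23 ± 0.10 (SE, n = 8), and it peaked at CT 16.2 (fitted peak over trough, 1.37). The rhythm did not pass (adjusted p = 0.775; exact permutation test, p = 0.0603). Levels by circadian time were 311 at CT 18, 310 at CT 12, 269 at CT 0 and 235 at CT 6, with no difference past the test (adjusted p = 0.734).

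Jun rc_AI175959_at had another time course. Its pools measured 441, 356, 339, 266, 380, 279, 219 and 449 from 0 to 42 h. The fitted amplitude was 0.30 ± 0.14 (SE, n = 8), and it peaked at CT 23.1, later in the cycle than rc_AA945867_at (fitted peak over trough, 1.52). The rhythm did not pass (adjusted p = 0.775; exact permutation test, p = 0.267). By circadian time the level was 409 at CT 0, 345 at CT 18, 315 at CT 6 and 273 at CT 12 (adjusted p = 0.787). Across the 8 pools both Jun probe sets correlated at r = 0.05, and Fos X06769cds_g_at correlated with them at r = -0.24 (rc_AA945867_at) and -0.78 (rc_AI175959_at). In the technical repeat the last of these was -0.46, and in the first run -0.38. These correlations share arrays and scaling and are given as descriptions.

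**Figure D2:**
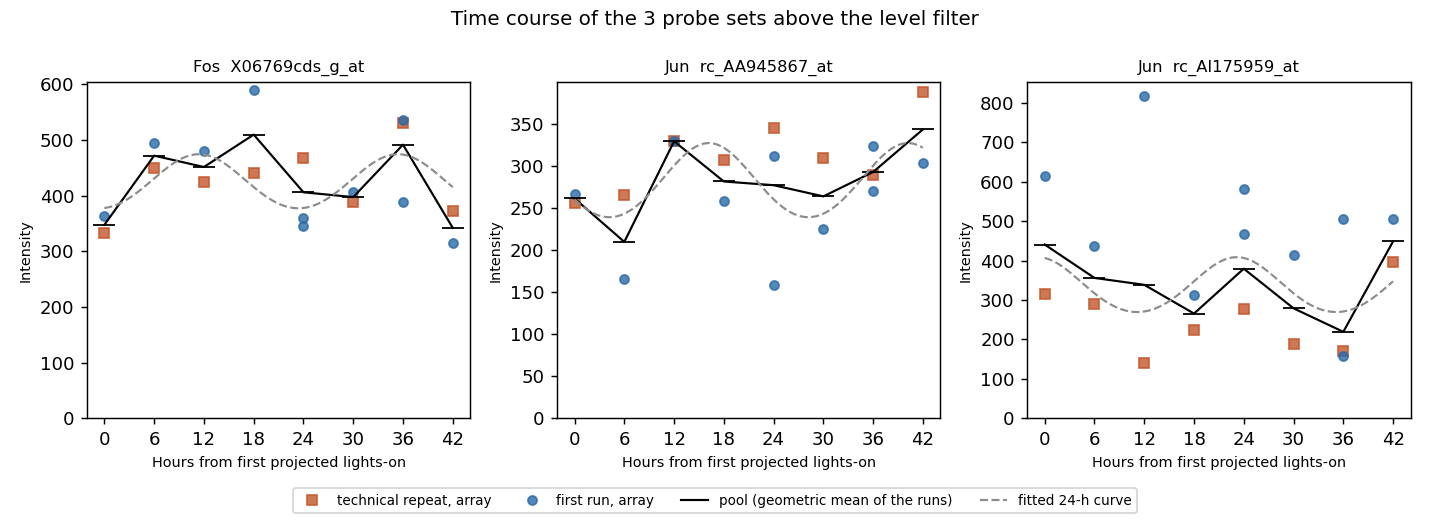
Intensity (linear axes from 0) against hours from the first projected lights-on for the 3 tested probe sets. Squares are arrays of the technical repeat, circles arrays of the first run (2 at 24 h and 36 h), the line joins the pools and the dashed line is the fitted 24-h curve. The fitted peaks lie at CT 11.4 for Fos, CT 16.2 for Jun rc_AA945867_at and CT 23.1 for Jun rc_AI175959_at, and at 12 h the last was at 140 in the technical repeat and at 819 in the first run.

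In the rhythm test 0 of the 3 AP-1 probe sets were called at an adjusted p under 0.05, against 0% of the 4370 probe sets tested. None of the 3 passed without adjustment either, where 6.36% of all probe sets did. Their amplitudes of 0.17, 0.23 and 0.30 exceeded those of 53.2%, 72.7% and 86.5% of the tested probe sets, whose median was 0.16. In the test of any difference among the 4 circadian times, 0 of 3 were called against a background of 0% after adjustment, and 0 of 3 against 7.05% without it.

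CT 6 and CT 18 are mid-day and mid-night of the animals' internal time. Fos X06769cds_g_at was at 472 and 397 in the CT 6 pools and at 509 and 342 in the CT 18 pools, which overlap. Its difference was 0.05 ± 0.22 on the log2 scale (SE, 2 pools per circadian time), with a 95% interval of -0.43 to 0.54 and an adjusted p of 0.981. Jun rc_AA945867_at was at 210 and 264 at CT 6 and at 281 and 343 at CT 18, so both CT 6 pools lay below both CT 18 pools. Pools of these times did not overlap for 1 of the 3 AP-1 probe sets, against 31.4% of all tested probe sets. Its difference of -0.40 ± 0.20 (95% interval -0.84 to 0.03) did not pass (adjusted p = 0.968). Jun rc_AI175959_at was at 356 and 279 at CT 6 and at 266 and 449 at CT 18, a difference of -0.13 ± 0.28 (95% interval -0.77 to 0.50, adjusted p = 0.972). The count was 0 of 3 after adjustment, against 0.0229% of all tested probe sets, and 0 of 3 without it, against 4.26%.

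CT 12 and CT 0 are the internal dusk and dawn. Fos was at 451 and 491 in the CT 12 pools and at 347 and 406 in the CT 0 pools, which do not overlap. Its difference was 0.33 ± 0.22 on the log2 scale (95% interval -0.16 to 0.81, adjusted p = 0.678). It was positive within both runs, at 0.27 in the technical repeat and 0.39 in the first run. Jun rc_AA945867_at was at 329 and 293 at CT 12 and at 261 and 277 at CT 0, again without overlap, with a difference of 0.21 ± 0.20 (95% interval -0.23 to 0.64, adjusted p = 0.780). Jun rc_AI175959_at lay the other way, with 339 and 219 at CT 12 and 441 and 380 at CT 0. Its difference was -0.59 ± 0.28 (95% interval -1.22 to 0.05, adjusted p = 0.573), with -0.93 in the technical repeat and -0.24 in the first run. Leaving out 3 first-run arrays whose hybridisation controls were bright, it was -1.01 (adjusted p = 0.891). That left the 12 h pool to the technical repeat alone, which read this probe set lower (238, against 464 in the first run). Time and run cannot be told apart in this change. The CT 12 pools did not overlap the CT 0 pools for 3 of 3 probe sets, and the same held for 44.8% of all tested probe sets, with 2 pools on each side. The count called was 0 of 3, against 0% after adjustment and 8.67% without it.

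Day 2 (24 to 42 h) was also compared with day 1 (0 to 18 h). Fos ranged from 342 to 491 on day 2 (geometric mean 406) and from 347 to 509 on day 1 (geometric mean 441). It differed by -0.12 ± 0.16 on the log2 scale (SE over 4 pools a day, 95% interval -0.48 to 0.24, adjusted p = 0.997). Jun differed by 0.13 ± 0.14 on rc_AA945867_at and by -0.11 ± 0.21 on rc_AI175959_at (adjusted p = 0.997 for both). Exact permutation tests of 4 against 4 pools gave p = 0.457, 0.429 and 0.771 in the same order. The days overlapped for each of the 3, and no share over all tested probe sets is given here to set beside this. After adjustment 0 of 3 were called, against 0% of all tested probe sets, and 0 of 3 without it, against 3.96%. The Fos difference was 0.09 in the technical repeat and -0.33 in the first run.

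The same RNA read in both runs shows how much of a pool's value the array sets. The SD of the differences between the technical repeat and the first run, divided by 2, estimates the error of a pool value. For Fos X06769cds_g_at this run-to-run error was 0.14 on the log2 scale, against an SD of 0.22 between the 8 pools. For Jun rc_AA945867_at it was 0.15 against 0.22. For Jun rc_AI175959_at it was 0.35 against 0.36, so that its pools spread about as much as its runs did. The median over the 4370 tested probe sets was 0.21 for the error and 0.23 for the pools. Among the AP-1 probe sets, the run-to-run error exceeded the SD of the pools for Fosl2 U18982_s_at, Junb X54686cds_at and Jund. The share over all probe sets is not given here, so nothing particular to them is read from this.

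Jun rc_AI175959_at also differed between the runs as a whole. Its level was 238 in the technical repeat and 464 in the first run, a log2 difference of -0.96, and all 8 pools were lower in the technical repeat. At 12 h the technical repeat gave 140 and the first run 819. At 36 h array b gave 157 and array a 506, a log2 difference of -1.69, where the median size of that difference was 0.52 over all tested probe sets. The shift between runs was larger than that of 87.3% of the tested probe sets. Fos X06769cds_g_at averaged 422 in the technical repeat and 424 in the first run, and Jun rc_AA945867_at 309 and 253. The hybridisation controls of the first-run arrays at 12 h, 18 h and 36 h (b) had geometric means of 4801 to 6370, against 1118 to 2417 on the other 15 arrays. Their part in the Jun values was not tested.

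**Figure D3:**
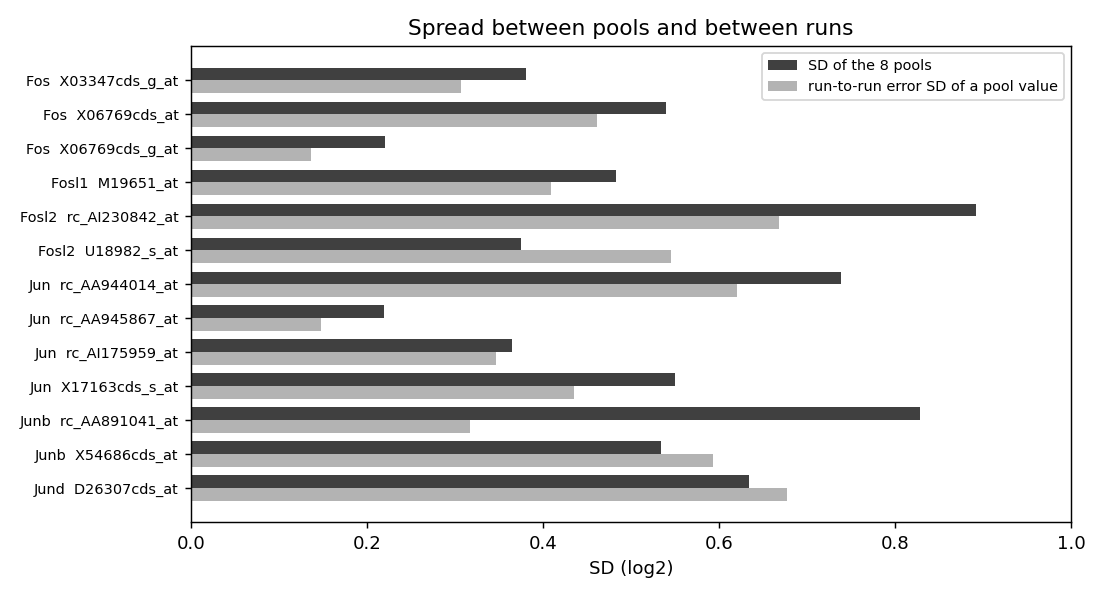
SD on the log2 scale for each AP-1 probe set, with the spread of the 8 pools in dark bars and the run-to-run error of a pool value in light bars. Junb rc_AA891041_at has the widest gap (0.83 and 0.32), and for Jun rc_AI175959_at the bars are nearly equal (0.36 and 0.35).

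The 10 dim probe sets were not tested at the level filter, and their time courses are described in part. Fos X03347cds_g_at was at 76 at CT 6, 129 at CT 18, 115 at CT 12 and 105 at CT 0. Fos X06769cds_at was at 34, 27, 57 and 54 in the same order. The 3 Fos probe sets thus differed in their order of circadian times. Junb rc_AA891041_at was the one of the 10 whose time course returned most closely in the repeat. Its pools measured 43.3, 16.9, 22.1, 25.7, 19.7, 87.9, 45.3 and 53.8 from 0 to 42 h. At 30 h it gave 86.6 in the technical repeat and 89.3 in the first run. The time courses of both runs correlated at r = 0.75 over 8 time points, a value reached by 2.53% of all probe sets without controls. It was named because its r was the highest of the 10, so this share overstates how unusual it is. The median r of the tested probe sets, which are brighter, was 0.09. The peak at 30 h did not have a counterpart at 6 h, the same circadian time on day 1, where the values were 12.4 in the technical repeat and 23.0 in the first run. The fitted 24-h amplitude was 0.06. The days had geometric means of 45.3 on day 2 and 25.4 on day 1 (exact permutation test, p = 0.200). All of these pools but 3 lay within the range of the control levels, which are means over 18 arrays. Single control values reached 165, above every pool of this probe set. The second Junb probe set, X54686cds_at, had 51.7 at 30 h and its highest pool, 125, at 12 h.

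Fosl2 rc_AI230842_at stood out at 18 h with 258, against 33.6 to 85.0 in the other pools. This rested on the first run, where the 18 h array gave 542, while the technical repeat gave 123. The second Fosl2 probe set measured 62.8 at 18 h, within its range of 45.0 to 99.7. Fosl1 had 39.2 at 42 h, against 14.6 to 19.2 in the other pools, from 19.3 in the technical repeat and 79.8 in the first run. Jun X17163cds_s_at had 54.7 at 18 h, from 101 in the technical repeat and 29.6 in the first run, against 17.0 to 28.6 in the other pools. Each of these 3 high pools came from 1 array, and the other run had a value within the range of the other arrays.

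Jun rc_AA944014_at measured 66.0, 45.1, 105 and 109.5 from 24 to 42 h, against 28.4, 38.4, 32.5 and 64.9 from 0 to 18 h. On day 2 against day 1, pools overlapped, and the difference was 0.97 ± 0.26 on the log2 scale (SE, 4 pools per day). With all 8740 probe sets in the fit its adjusted p was 0.960, and the exact permutation test gave p = 0.0571. Within the runs the difference was 0.48 in the technical repeat and 1.47 in the first run. The runs as a whole had geometric means of 79.1 in the technical repeat and 37.7 in the first run, and at 24 h array b gave 18.9 and array a 112. The other Jun probe sets differed between the days by 0.13 (rc_AA945867_at), -0.11 (rc_AI175959_at) and -0.11 (X17163cds_s_at). Jund had 26.9 on day 2 and 15.6 on day 1, near the floor, with single high arrays at 36 h (91.5, technical repeat) and 30 h (64.4, first run).

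**Figure D4:**
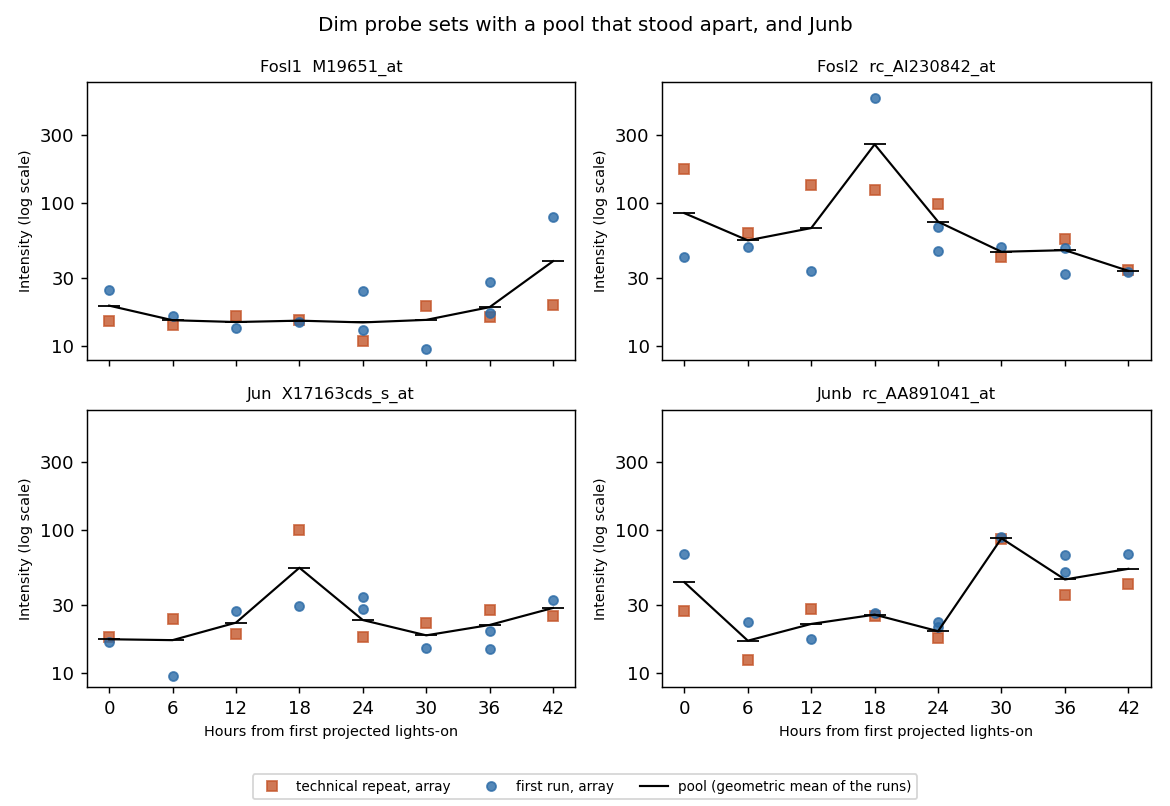
Intensity (log axis, the same range in each panel) against hours from the first projected lights-on for 4 dim probe sets. Squares are arrays of the technical repeat, circles arrays of the first run, and the line joins the pools. The high pools of Fosl1 (42 h), Fosl2 (18 h) and Jun X17163cds_s_at (18 h) each follow 1 array, whereas both runs of Junb rc_AA891041_at are high at 30 h (86.6 and 89.3).

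When all 13 probe sets were fitted without a level filter among 8740, 0 of 13 were called in each of the 5 comparisons, against 0% of the 8740. The smallest adjusted p was 0.661 (CT 12 against CT 0, Jun rc_AI175959_at). Without adjustment 1 of 13 passed in the rhythm test (Jun X17163cds_s_at), where 6.51% of the 8740 did. Between CT 6 and CT 18, 2 of 13 passed (Fos X03347cds_g_at and Jun X17163cds_s_at, against 5.42%), and between the days 2 of 13 (Jun rc_AA944014_at and Jund, against 5.14%). Among circadian times 2 of 13 passed (Fos X06769cds_at and Junb X54686cds_at, against 7.01%), and between CT 12 and CT 0 the count was 0 of 13, against 8.33%.

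The genes whose time course was most like that of a member were sought among tested probe sets of other genes, by the lower of the correlations in both runs over 8 time points. For Fos X06769cds_g_at these were Pcbp4, an RNA-binding protein (r = 0.82 in the technical repeat and 0.80 in the first run), and Tef, a clock-controlled factor of the PAR bZIP family (0.75 and 0.87). For Jun, represented by rc_AI175959_at, they were Qdpr, which regenerates the cofactor tetrahydrobiopterin (0.93 and 0.90), and Pdia6, a protein disulfide isomerase (0.85 and 0.87). With 3587 and 3586 candidates and 8 points, values of this size are a description of rank only. The time courses of Jun rc_AI175959_at in both runs correlated with each other at r = 0.05, and those of Fos X06769cds_g_at at r = 0.47, so for Jun the likeness describes values that differed between the runs.

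Genes around AP-1 in its signalling pathway were fitted in the same way, where 0% of all 4370 probe sets were called in the rhythm test, so that 0 calls do not set these lists apart. Among other bZIP factors, 0 of 6 tested genes were called in the rhythm test, led by Cebpd (amplitude 0.47 ± 0.14, peak at CT 13.2, adjusted p = 0.746) and Atf3, a stress-induced partner of Jun (0.28 ± 0.11, CT 15.1, adjusted p = 0.762). Of 20 genes for kinases, their regulators and transcription factors upstream of Fos and Jun, 0 were called. Mapk9, a Jun N-terminal kinase (0.49 ± 0.12, CT 23.5, adjusted p = 0.746), and Map2k6 (0.24 ± 0.10, CT 20.2) came first. Of 7 genes for phosphatases or their subunits, listed as limiting this signalling, 0 were called. Ptprr (0.30 ± 0.09, CT 23.3) and Ppp3r1 (0.21 ± 0.10, CT 15.3) came first there. Of 21 other immediate early genes, 0 were called, led by Egr1 (0.42 ± 0.13, CT 8.99, adjusted p = 0.746) and Klf9 (0.34 ± 0.11, CT 11.0). Of 16 known AP-1 targets, 0 were called, with Penk, the enkephalin precursor (0.26 ± 0.10, CT 7.68), and Hmox1 (0.28 ± 0.14, CT 6.27) first. The median amplitudes of these lists were 0.21, 0.12, 0.21, 0.20 and 0.14 in the same order, against 0.16 over all tested probe sets. Without adjustment 1, 1, 1, 2 and 0 genes passed in the rhythm test in that order of lists, against 6.36% of all tested probe sets. Between CT 12 and CT 0 the counts were 2, 2, 1, 4 and 0 (against 8.67%), and between CT 6 and CT 18 they were 0, 0, 0, 3 and 1 (against 4.26%). Between the days they were 0, 0, 0, 1 and 2 (against 3.96%), and among the circadian times 2, 2, 1, 3 and 1 (against 7.05%). In these 4 comparisons 0 genes of the 5 lists were called after adjustment, against 0% to 0.0229% of all tested probe sets.

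The arrays were scaled to nearly the same trimmed mean. Their medians still differed between the runs, at 108 to 128 in the technical repeat and 136 to 152 in the first run. Avp, a defining SCN peptide, was at 1732 on its brightest probe set, whereas Vip, the other, was at 49.0 on its only probe set and below the filter. Oxt, of neighbouring hypothalamic nuclei, was at 3034. Lists of SCN peptides, of pan-neuronal, astrocyte, oligodendrocyte, microglia, vessel and choroid plexus markers and of neighbouring hypothalamic neurons had 5, 6, 8, 8, 5, 3, 4 and 9 tested genes, and 0 were called in any comparison, against 0% to 0.0229% of all tested probe sets. Those with the smallest p in the rhythm test were Avp, Nmu, Snap25, Syp, Fabp7, Slc1a2, Ugt8, Mal, Cd74, Ptprc, Kdr, Flt1, Ttr, Igfbp2, Pmch and Pomc, with adjusted p between 0.321 (Ttr) and 0.850 (Igfbp2). Ttr, a choroid plexus marker, had an amplitude of 1.02 ± 0.18 and differed by 2.04 on the log2 scale between CT 6 and CT 18, with the smallest adjusted p of its list in that comparison at 0.486. Its part in the values of Fos and Jun was not tested. The GAPDH 3′ to 5′ ratio, a sign of RNA or labelling quality, was 14.3 to 24.8 in the technical repeat and 8.55 to 35.2 in the first run. The 3′ end was thus the brighter on every array. The ratio of 35.2 was that of the first-run 18 h array, which also had bright hybridisation controls. The same array gave 542 for Fosl2 rc_AI230842_at, and whether its quality played a part there was not tested.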

How the data were processed

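RNA pools of 5 rats at 8 time points were read on 18 arrays, and the pool was the replicate. The authors' deposited values are probe set intensities on a linear scale, already scaled per array (the mean after trimming 2% at each end lay between 500.7 and 500.8). The summary algorithm is not given in the sources used here. Values below the 10th percentile (12.1) were raised to it and log2 was taken. Arrays a and b were averaged, then both runs. The 59 control probe sets were left out of the tests, and 4370 probe sets above the median level were fitted with limma 3.58.1 in R 4.3.3. The models held a cosine and sine of 24 h, with a day term for the days, or circadian time as a factor. P-values were adjusted (Benjamini-Hochberg) over all tested probe sets, with a threshold of 0.05. The fit had 5 residual and 5.13 prior degrees of freedom. Since 1 pool stood for a time point, p-values reflect how pools scatter about the curve, array error included. Exact permutation tests were added for single probe sets, with a smallest possible p of 0.00317 for the rhythm and 0.0286 for the days. No exact test was made of 2 against 2 pools. The numbers of pools (1 per time point) and of arrays limit the precision. The fits were tested on simulated pools. Each size of change was planted in 100 of the 4370 probe sets. Simulated rhythms were recovered in 39% of these at an amplitude of 0.5 and in 90% at 1. Simulated day differences were recovered in 12% at 0.5 and in 68% at 1 on the log2 scale. Of the unchanged probe sets, 5 were called in the rhythm simulation and 4 in that of the days. The adjustment is laxer where many probe sets change, so a lone change would be recovered less often than these shares. The amplitudes of the tested AP-1 probe sets (0.17 to 0.30) lay below the smaller simulated amplitude. Recovery at such amplitudes was not tested, so the absence of a call does not show the absence of a rhythm.

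Probe sets were named by the platform annotation where it gave 1 symbol (7006 probe sets; 308 had several and 1426 none). The gene numbers of 6985 were in the table of RefSeq genes, which changed 0 symbols. The members and gene lists were chosen with earlier results of these data known, and where a gene had several probe sets, the one with the highest level stood for it in a list. Named were all members, the 2 genes most like each tested member, and of each other list the 2 tested genes that came first in the rhythm test. Alternatives were quantile normalization, median scaling, other filters and floors, a pseudocount of 16, limma with trend and robust, and either run by itself. Others were leaving out the a or the b arrays, a day term, and each pool left out. Single arrays were also fitted, with the run as a term and the pool as a random block. Leaving out 3 arrays was added after seeing the data.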

Additional observations from a re-analysis of the deposited data

Results flagged for a closer look

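Among the 8 pools of a probe set, 3 of the 13 had a pool that stood apart by Dixon's criterion for 8 values, which chance meets in about 1 of 20 sets. Of the probe sets without controls whose pools varied, 9.35% had such a pool, and of those not above the level filter 10.6% did. With 13 probe sets, several of them for the same gene, no more is read from the count. The pools belong to different time points, so such a gap can also be a difference in time. Fosl1 M19651_at had 39.2 at 42 h, with the next pool at 19.2. Fosl2 rc_AI230842_at had 258 at 18 h, with the next at 85.0. Jun X17163cds_s_at had 54.7 at 18 h, with the next at 28.6. In each, 1 of the runs carried the high value. Whether these are array errors was not tested.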

How the results depend on the processing

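The 3 tested AP-1 probe sets were called in none of the comparisons under the alternatives that tested them (the day term was run for 3 of the 5 comparisons). The other 10 were tested only with no level filter, where 0 were called. The smallest adjusted p of a member under any alternative run was 0.473 for Jun rc_AI175959_at (CT 12 against CT 0, median scaling). With the level filter at the 75th percentile no AP-1 probe set was left to test. Of 186 values of a signed difference recomputed for the 3 tested probe sets, 11 changed sign, and none of these had been called. For Fos they were CT 6 against CT 18 without the 6 h or 42 h pool (without 1 pool, from -0.17 to 0.29) and day 2 against day 1 in the technical repeat alone (0.09). For Jun rc_AI175959_at they were CT 6 against CT 18 in the first run alone (0.0926) and without the 30 h or 42 h pool (without 1 pool, from -0.44 to 0.16). Its day difference was 0.0719 in the technical repeat alone, 0.0155 without arrays b, 0.37 without the 3 arrays with high hybridisation controls (chosen after seeing the data) and -0.33 to 0.0241 without 1 pool. Without the 3 arrays, the 12 h and 18 h pools of day 1 rested on the technical repeat alone. That run read this probe set lower in all pools, so day and run are mixed in the value of 0.37. The causes were not tested. The amplitude of Jun rc_AI175959_at ranged from 0.13 (first run alone) to 0.51 (without the 3 arrays, where the runs are mixed in the same way).

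The counts over all probe sets were 0 in the rhythm test and 1 between CT 6 and CT 18. The rhythm count was 2 with the filter at the 75th percentile or with trend and robust. It was 1 in the technical repeat alone and with single arrays. The CT 6 against CT 18 count was 0 with no filter, in either run alone, without arrays a, with a day term, without the 3 arrays, and without any 1 pool (0 to 0). The CT 12 against CT 0 count was 0, but 1 with the 75th percentile filter or trend and robust, and 2 in the technical repeat alone. The count among circadian times was 0, but 1 with that filter, with trend and robust or without arrays b. The day count was 0 to 1 without 1 pool (1 without the 0 h pool). The fit of single arrays changed no call of an AP-1 probe set. In it the correlation between arrays of a pool was estimated at -0.04. The 18 arrays thus counted nearly as independent readings, although they read 8 pools. Signal over background limits the 10 dim probe sets.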
